A study of Mus musculus with 9 samples.

Results

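Expression of 10 genes of blood and lymphatic vessel growth was described across 9 libraries of sorted mouse lung cells. The genes were chosen by name from a list of angiogenic growth factors and their receptors. They are Vegfa, Vegfb, Vegfc, Pgf, Hgf, Met, Angpt1, Angpt2, Angptl4 and Nrp1, and they are 10 of the 54449 genes in the deposited table and 10 of the 13642 genes tested.

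The labels describe all libraries as lung eosinophils, granulocytes of type 2 immunity, from C57BL/6 mice. In the Siglec-F high group (n = 3) the mice had received cells of PyMT, a mouse mammary tumour model, by the tail vein and the cells carried high surface Siglec-F, a lectin used to sort eosinophils. In the Siglec-F int group (n = 3) the mice had received the same tumour cells and the sorted cells carried intermediate Siglec-F. In the naive group (n = 3) the mice had received saline alone. Material from 3 to 4 mice was pooled for every library, and n counts those pools, so the p-values measure the spread between pools. The tumour cells were placed in the circulation directly, so the model has no primary tumour, and no uninjected mice were compared here. No sort by Siglec-F is given for the naive cells, so that the tumour injection and the Siglec-F gate cannot be told apart in the comparisons with naive. The libraries held between 2205949 and 12495639 reads assigned to genes.

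The libraries did not all carry the genes of their labelled cell type. Ccr3, the eotaxin receptor, had 0 reads in all 3 naive libraries, and Epx, the eosinophil peroxidase, was at 0 in 6 of the 9 libraries. Siglecf, the gene of the sort marker, had 17.6, 3.58 and 14.5 normalized counts in the Siglec-F high libraries, 6.98, 20.2 and 11.1 in the Siglec-F int libraries and 12.6, 31.3 and 4.18 in the naive libraries. The 3 groups overlapped at these low values, which cannot settle whether the transcript follows the surface level that names the high and int groups. Summed over 8 eosinophil markers, normalized counts were 507 to 1110 in the Siglec-F high libraries, 183 to 404 in the Siglec-F int libraries and 208 to 724 in the naive libraries. Ear2 had 568, 375 and 283 of these in high, 117, 269 and 125 in int and 315, 469 and 144 in naive libraries. Prg2 had 380 in high library 3, against 6.58 and 0.60 in the other high libraries. Sums over 8 pigment cell markers were 209 to 949 in high and 346 to 654 in int libraries, against 58209 to 67239 in naive libraries. Sums over 8 fibroblast and mesenchymal markers were 23379 to 34790 in high, 9566 to 24796 in int and 5447 to 7080 in naive libraries. Epx was at 0 in 2 libraries of each group, and none of the 5 eosinophil markers tested passed with limma in any comparison. The group names high, int and naive below therefore follow the labels, and the labelled cell type is in doubt for each of them. Siglec-F high library 1 stood apart: its highest correlation with another library from tumour-injected mice was 0.76, against 0.94 to 0.95 for each of the others, and 31.1% of its reads were mitochondrial, against 11.5 to 21.2% in the other libraries. Siglec-F int library 2 had the highest monocyte and macrophage marker sum, 37066, against 2857 to 10003 elsewhere. Counts of genes called by limma were repeated with both left out together.

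The vascular endothelial growth factors are secreted ligands. VEGF-A drives blood vessel sprouting through the receptor VEGFR2, VEGF-B and placental growth factor bind VEGFR1, VEGF-C acts on lymphatic vessels through VEGFR3, and neuropilin-1 is a coreceptor of several of them. Hepatocyte growth factor, a product of mesenchymal cells, signals through the receptor tyrosine kinase MET, and the angiopoietins stabilise or loosen vessels through the receptor TIE2. Eosinophils are known to store and release VEGF.

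The promoters of 3 genes are shown, because these genes stand for a ligand that was higher in one comparison, a ligand that was lower in both and a ligand that was read only in the libraries from tumour-injected mice. Each sequence is the 250 bases before the gene's start in RefSeq on GRCm38.p6, read 5′ to 3′ on the gene's own strand. Of the 10 genes, 7 matched the promoter table. Capitals mark GGGCGG (the GC box), GCGTG (the weaker core of the hypoxia response element) and CATGTG (an E-box form that MITF binds), on either strand. The windows are chr17:46032378-46032627 (minus strand) for Vegfa, chr19:6987652-6987901 (minus strand) for Vegfb and chr5:16553245-16553494 (plus strand) for Hgf.
Vegfa: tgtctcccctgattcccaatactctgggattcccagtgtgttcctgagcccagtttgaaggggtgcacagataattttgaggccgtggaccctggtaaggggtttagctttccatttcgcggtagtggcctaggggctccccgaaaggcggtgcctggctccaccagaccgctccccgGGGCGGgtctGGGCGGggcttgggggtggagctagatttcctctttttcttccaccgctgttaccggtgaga
Vegfb: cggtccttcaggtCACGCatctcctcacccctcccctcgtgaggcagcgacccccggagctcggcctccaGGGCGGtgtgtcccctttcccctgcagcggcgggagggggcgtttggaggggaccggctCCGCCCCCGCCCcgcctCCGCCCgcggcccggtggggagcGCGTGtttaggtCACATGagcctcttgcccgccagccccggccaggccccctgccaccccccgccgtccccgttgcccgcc
Hgf: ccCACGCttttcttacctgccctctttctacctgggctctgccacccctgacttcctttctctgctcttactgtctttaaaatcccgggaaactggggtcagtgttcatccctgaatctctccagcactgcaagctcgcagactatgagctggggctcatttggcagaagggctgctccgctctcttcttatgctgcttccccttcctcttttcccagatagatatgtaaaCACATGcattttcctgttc

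The Vegfb window was the richest of the 3 in G and C, at 76.4%, against 59.2% for Vegfa and 50.8% for Hgf. It held 4 matches to GGGCGG, none overlapping, 2 to GCGTG and 1 to CATGTG. The Vegfa window held 2 matches to GGGCGG, and the Hgf window held 1 to GCGTG and 1 to CATGTG. None of the 3 windows held ACGTG, the commoner core of the hypoxia response element, or TGANTCA, the AP-1 site. Of 32851 promoter windows of the same length, 32.7% held GGGCGG, 28.2% GCGTG, 16.6% ACGTG, 12.3% CATGTG and 6.75% TGANTCA. A match is a string of letters, not a measured binding site.

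The 10 genes changed in both directions relative to naive. In the Siglec-F high group, 6 of the 10 passed the limma test at an adjusted p of 0.05, with 4 higher and 2 lower. Over all genes tested, 31.3% passed in this comparison, 14.7% higher and 16.6% lower. In the Siglec-F int group, 5 of the 10 passed, with 3 higher and 2 lower, where 22.3% of all genes passed, 12.0% higher and 10.3% lower. Under removal of the trend in GC content and transcript length, the counts were 4 higher and 2 lower in high, and 1 higher and 3 lower in int. The share over all genes under that removal is not given here, so these counts are not read as a trait of the 10. Between Siglec-F high and Siglec-F int, 0 of the 10 and 0% of all genes passed. Both comparisons with naive share the 3 naive libraries, so that a naive library moves both. edgeR's quasi-likelihood test on the recovered reads called 6, 5 and 0 of the 10 in the 3 comparisons, where it called 26.0%, 21.1% and 0% of all genes. DESeq2 called 6, 6 and 0 of the 10, where it called 36.4%, 29.5% and 0.0440% of all genes. An unadjusted limma p was under 0.05 for 6 of the 10 in high and 7 in int, and for 45.1% and 36.8% of all genes. With high library 1 and int library 2 left out, limma called 6 (4 higher, 2 lower) in the Siglec-F high group and 6 (4 higher, 2 lower) in the Siglec-F int group. Calls over all genes rose in int under this removal too, as the closing section gives, and those for high are not given here. All 10 genes passed the filter on low values, and Hgf did so only through the libraries from tumour-injected mice.

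**Figure D1:**
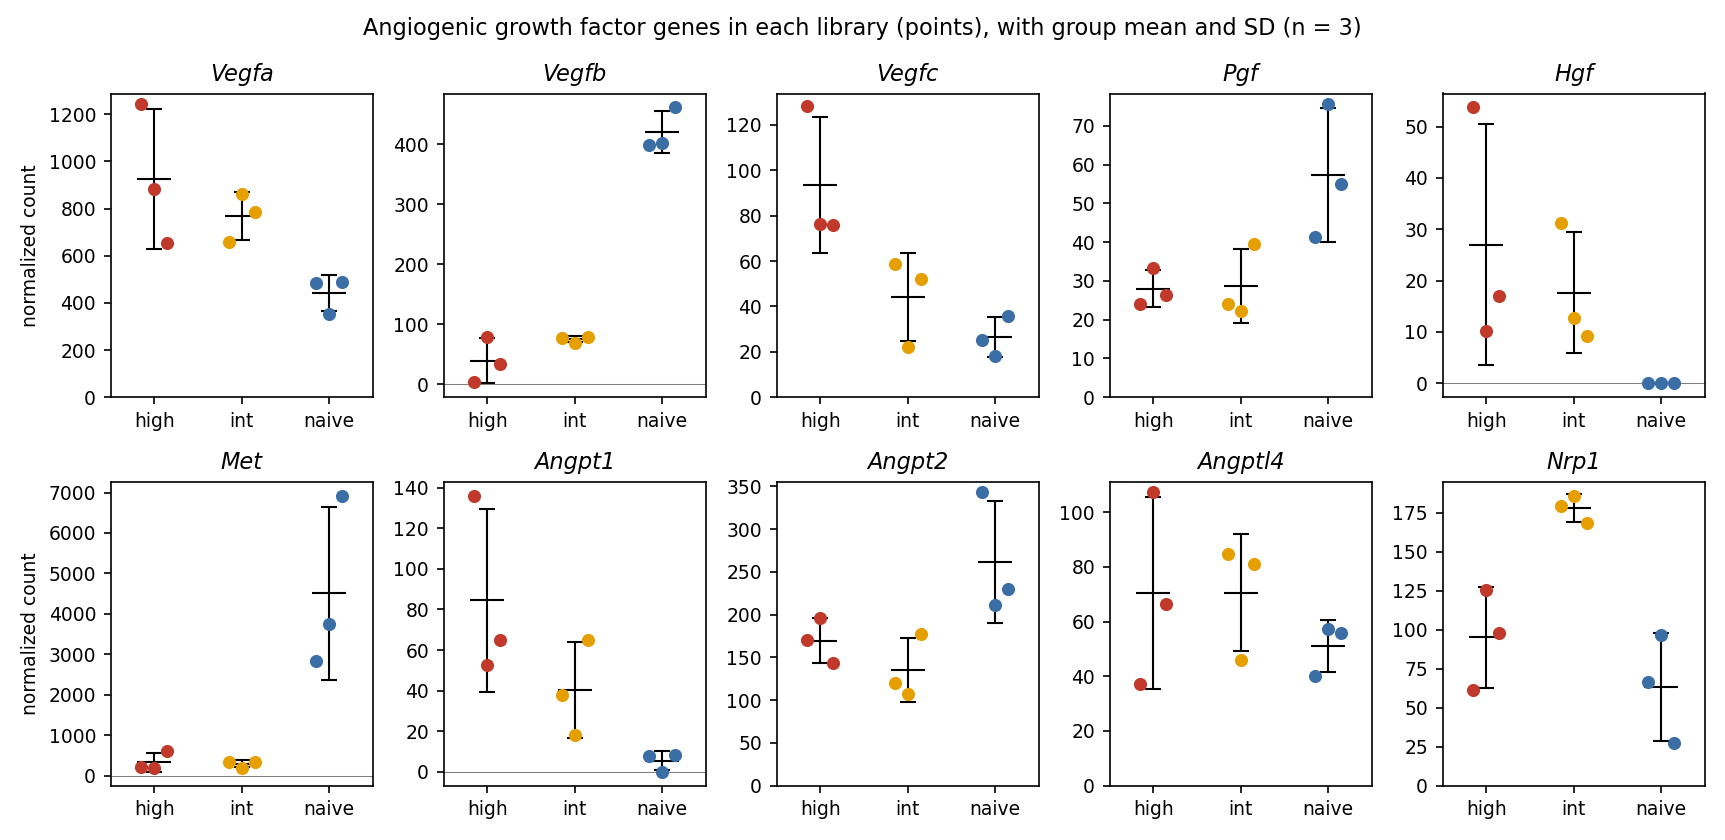
Normalized counts (vertical axes, linear, each gene with its own scale) of the 10 genes in each library of the Siglec-F high, Siglec-F int and naive groups. Points are libraries and bars are the mean and SD (n = 3 pools). Hgf is at 0 in the 3 naive libraries, and Met runs from 2849 to 6919 there.

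Vegfa, the main growth factor of blood vessels (ENSMUSG00000023951.17; chromosome 17, 46016993 to 46032369, minus strand, GRCm38), was about 2.1-fold higher in Siglec-F high than in naive libraries by the ratio of means. It had 1244, 881 and 655 normalized counts in the Siglec-F high libraries, 658, 860.3 and 787 in the Siglec-F int libraries and 485, 354 and 487 in the naive libraries. Every library from tumour-injected mice lay above every naive library, and the high and int libraries overlapped. The means were 927 ± 297, 768 ± 102 and 442 ± 76.1 in the high, int and naive groups (SD, n = 3 each). The log2 fold change on log2(value + 1) was 1.03 ± 0.30 (SE) for high over naive (limma adjusted p = 0.0270), and Vegfa thus rose. For int over naive it was 0.80 ± 0.30 and did not pass (limma adjusted p = 0.0811). Both values stand against a median over all genes of -0.11 and -0.02, which a scaling to equal totals set to 0.02 and 0.23. The call for high was lost without naive library 1, 2 or 3 (limma adjusted p = 0.0522, 0.0779 and 0.0529). The call for int was gained without Siglec-F high library 1 (limma adjusted p = 0.0193), and with equal totals, TMM and quantile scaling (0.0314, 0.0387 and 0.0243).

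Vegfb, a VEGFR1 ligand linked to fatty acid handling in muscle and heart (ENSMUSG00000024962.13; chromosome 19, 6982473 to 6987651, minus strand), fell in both groups from tumour-injected mice. It had 4.39, 78.75 and 34.1 normalized counts in the Siglec-F high libraries, 77.8, 69.5 and 78.4 in the Siglec-F int libraries and 399, 401 and 461 in the naive libraries. No library from tumour-injected mice came near the naive range, and the 3 high libraries spread far more than the 3 int libraries. The means were 39.1 ± 37.4 in the high group, 75.3 ± 4.99 in the int group and 420.45 ± 35.2 in the naive group. The log2 fold change was -4.09 ± 0.77 for high over naive (limma adjusted p = 0.00426) and -2.47 ± 0.77 for int over naive (limma adjusted p = 0.0431). Siglec-F high library 1 set much of the change in high: without it the change was -2.99 (limma adjusted p = 0.000624), and without high library 2 it was -4.93. The call for int was lost without naive library 1, 2 or 3, high library 3 or int library 1, 2 or 3 (limma adjusted p = 0.101, 0.100, 0.109, 0.0550, 0.108, 0.107 and 0.110), although the change stayed between -2.50 and -2.40. The Vegfb transcript has a GC content of 62.6%, the highest of the 10. With the trend in GC content and length removed, the changes were -2.42 for high (limma adjusted p = 0.00152) and -1.53 for int (limma adjusted p = 0.0186).

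Vegfc, the lymphatic growth factor (ENSMUSG00000031520.6; chromosome 8, 54077606 to 54187096, plus strand), rose in the Siglec-F high group. It had 128, 76.4 and 75.9 normalized counts in the Siglec-F high libraries, 58.5, 21.9 and 52.2 in the Siglec-F int libraries and 25.2, 18.2 and 35.9 in the naive libraries. The high libraries lay above all others, whereas int library 2 fell within the naive range. By limma, the log2 change was 1.79 ± 0.52 for high over naive (limma adjusted p = 0.0265) and 0.65 ± 0.52 for int over naive (limma adjusted p = 0.393). The call for high was lost without naive library 1, naive library 2 or Siglec-F high library 1 (limma adjusted p = 0.0633, 0.0723 and 0.0560).

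Pgf, placental growth factor (ENSMUSG00000004791.7; chromosome 12, 85166635 to 85177790, minus strand), passed in neither comparison. It had 24.1, 33.4 and 26.4 normalized counts in the Siglec-F high libraries, 24.2, 22.3 and 39.5 in the Siglec-F int libraries and 41.3, 75.55 and 55.1 in the naive libraries. All 6 libraries from tumour-injected mice lay below the naive libraries, but the naive libraries spread widely. On the log2 scale the change was -0.98 ± 0.48 in both comparisons (limma adjusted p = 0.136 for high and 0.167 for int). With the trend in GC content and length removed it was 0.30 for high and -0.34 for int. Within the VEGF ligands, then, Vegfa and Vegfc were higher and Vegfb was lower in Siglec-F high than in naive libraries, and of the 4 only Vegfb passed in the Siglec-F int group.

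Nrp1, the neuropilin-1 coreceptor (ENSMUSG00000025810.9; chromosome 8, 128358604 to 128503363, plus strand, with the microRNA gene Mir1903 within it), rose in the Siglec-F int group. It had 61.4, 126 and 98.1 normalized counts in the Siglec-F high libraries, 179, 186 and 169 in the Siglec-F int libraries and 66.5, 96.4 and 27.6 in the naive libraries. The int libraries were close to each other and above all others, and the high and naive libraries overlapped. The log2 fold change was 1.64 ± 0.49 for int over naive (limma adjusted p = 0.0346) and 0.69 ± 0.49 for high over naive (limma adjusted p = 0.289). The call for int was lost without naive library 1 or 3, high library 3 or int library 1, 2 or 3 (limma adjusted p = 0.0656, 0.104, 0.0512, 0.103, 0.0901 and 0.0986), and the change was 1.14 without naive library 3. With the trend in GC content and length removed it was 0.90 (limma adjusted p = 0.270). Macrophages can carry neuropilin-1, and 4 of 8 monocyte and macrophage markers were higher than naive in int, and 4 of 8 in high, where Nrp1 did not pass. Their sums were 3963 to 9509 in the high libraries, 7848 to 37066 in the int libraries and 2857 to 4103 in the naive libraries. Int library 2, with the sum of 37066, had 186 normalized counts of Nrp1, against 179 and 169 in the other int libraries. Without both high library 1 and int library 2, 6 of the 8 markers were higher in int and 5 in high. Their part in the Nrp1 values was not tested. In bulk RNA of this kind, fewer cells of a type and less RNA per cell cannot be told apart.

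Among 9 other receptors and coreceptors of the VEGF family, 2 were higher and 2 lower than naive in each group, and 5 did not pass. The same counts held with high library 1 and int library 2 left out. After removal of the trend in GC content and length, they were 2 higher and 0 lower in high, so that both lower calls were lost, and 1 higher and 2 lower in int. The median log2 fold changes were 0.22 for high and 0.57 for int. Plxna2, a semaphorin receptor that pairs with neuropilins, had 51.9 to 97.6 normalized counts in the high libraries, 33.3 to 96.6 in the int libraries and 0 to 10.4 in the naive libraries. Its log2 fold changes were 4.38 ± 0.84 for high (limma adjusted p = 0.00453) and 4.03 ± 0.84 for int (limma adjusted p = 0.00785). Flt1, which encodes VEGFR1, had 532, 271 and 305 normalized counts in the high libraries, 371, 162 and 351 in the int libraries and 50.5, 36.5 and 207 in the naive libraries. Its changes were 2.26 ± 0.61 (limma adjusted p = 0.0196) and 1.91 ± 0.61 (limma adjusted p = 0.0465), and naive library 3 reached above int library 2. Without naive library 1 or 2 the Flt1 call for high was lost (limma adjusted p = 0.0683 and 0.0712). The Flt1 call for int was lost without either of these, high library 3, int library 1 or int library 3 (limma adjusted p = 0.141, 0.152, 0.0641, 0.152 and 0.148). Plxna1, another neuropilin partner, was lower by a log2 change of -1.59 in high and -1.94 in int (limma adjusted p = 0.00697 and 0.00321). Plxnd1, a semaphorin receptor of vessels, was lower by -2.09 in high (limma adjusted p = 0.0156) and by -1.77 in int (limma adjusted p = 0.0371). The Plxnd1 call for int was lost without any single naive library (limma adjusted p = 0.0915, 0.0831 and 0.0804) or any single int library (0.130, 0.0616 and 0.117). Kdr, which encodes VEGFR2, had log2 fold changes of 0.72 for high (limma adjusted p = 0.261) and 0.41 for int (limma adjusted p = 0.567).

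Hgf, hepatocyte growth factor (ENSMUSG00000028864.7; chromosome 5, 16553495 to 16620152, plus strand), was read in all 6 libraries from tumour-injected mice and in no naive library. It had 53.7, 10.1 and 17.1 normalized counts in the Siglec-F high libraries, 31.1, 12.6 and 9.17 in the Siglec-F int libraries and 0, 0 and 0 in the naive libraries. These rest on 86 reads in the high group, 117 reads in the int group and 0 reads in the naive group. Against a floor of 3 reads over the naive group, Hgf was at least 18.7-fold higher in the high group and at least 12.9-fold higher in the int group. Without Siglec-F high library 1, the one at 53.7, the bound for high was 10.6-fold on 37 reads. Hgf passed in both comparisons (limma adjusted p = 0.00379 for high and 0.00716 for int). It passed in each of the 23 other settings that kept it, with limma, edgeR or DESeq2 adjusted p no higher than 0.0214 for high and 0.0441 for int. A filter on a mean of at least 20 removed Hgf. Hgf passed the main filter only through the groups where it was higher, so a higher call was favoured in advance and its repetition adds little support. The bound covers counting error only. The annotation places 2 genes listed as to be experimentally checked, Gm43489 and Gm42975, on the same strand within Hgf.

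Met, the receptor of hepatocyte growth factor (ENSMUSG00000009376.15; chromosome 6, 17463800 to 17573980, plus strand), fell in both groups from tumour-injected mice. It had 215, 182 and 609 normalized counts in the Siglec-F high libraries, 344, 203 and 354 in the Siglec-F int libraries and 2849, 3749 and 6919 in the naive libraries. The lowest naive library was several times above the highest library from tumour-injected mice, and the high and int libraries overlapped. The means were 335 ± 238 in the high group, 300.4 ± 84.1 in the int group and 4505 ± 2138 in the naive group. By limma, the log2 change was -3.86 ± 0.49 for high (limma adjusted p = 0.000629) and -3.84 ± 0.49 for int (limma adjusted p = 0.000883). Leaving out each library in turn kept it between -4.40 and -3.50 for high and between -4.12 and -3.48 for int. Ligand and receptor genes thus differed in opposite directions: Hgf was higher and Met lower in both groups than in naive. The pigment cell markers moved with Met: all 8 were lower in both groups (limma), and their sums are those given above. Met is known to be expressed in melanocytes, and the part of such cells in the Met values was not tested. Most of 8 fibroblast and mesenchymal markers were higher than in naive, as Hgf was. By library, high library 1 had both the highest sum, 34790, and the highest Hgf value, 53.7. Int library 2 had the lowest sum outside naive, 9566, and Hgf at 12.6. Int library 3, with a sum of 20787, had Hgf at 9.17, the lowest value outside naive. Of those markers 6 were higher in high and 5 in int (3 without int library 1 or 3), with sums of 23379 to 34790 in the high libraries, 9566 to 24796 in the int libraries and 5447 to 7080 in the naive libraries. Their part in the Hgf values was not tested.

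Genes that activate or restrain hepatocyte growth factor were measured too. Of 8 such genes 5 were tested, of which 3 were higher in high (median 1.75) and 2 in int (median 1.70), and none was lower. In high the count was 1 without naive library 2, high library 1, high library 2 or int library 3, and in int it was 1 without naive library 3 or int library 1 or 3. With Siglec-F high library 1 and int library 2 left out, 2 were higher in each. Plat, tissue plasminogen activator, had 336, 177 and 176 normalized counts in the high libraries, 159, 100.3 and 139 in the int libraries and 39.0, 52.1 and 30.1 in the naive libraries. Its log2 fold change was 2.44 ± 0.40 in high (limma adjusted p = 0.00225) and 1.70 ± 0.40 in int (limma adjusted p = 0.0142). The int call was lost without naive library 3, int library 1 or int library 3 (limma adjusted p = 0.0507, 0.0684 and 0.0628). Spint1, an inhibitor of the proteases that process hepatocyte growth factor, changed by 1.75 ± 0.57 in high (limma adjusted p = 0.0394) and 2.70 ± 0.57 in int (limma adjusted p = 0.00824). The call in high was lost without naive library 1, 2 or 3, high library 1 or 2, or int library 3 (limma adjusted p = 0.0635, 0.0806, 0.106, 0.0689, 0.0913 and 0.0642). Plau, urokinase, changed by 2.77 ± 0.88 in high (limma adjusted p = 0.0360), a call lost without naive library 2, high library 1, 2 or 3, or int library 1 or 3 (0.0833, 0.0545, 0.0679, 0.0704, 0.0502 and 0.0586).

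Of 9 adaptors and partners of MET, 1 was higher and 1 lower in high, and 1 was lower in int, also with high library 1 and int library 2 left out. Once the trend in GC content and length was removed, 0 were higher and 1 lower in each. Plxnb1, a semaphorin receptor that associates with MET, had 8.77 to 19.6 normalized counts in the high libraries, 17.7 to 19.3 in the int libraries and 130 to 174 in the naive libraries. Its log2 fold changes were -3.19 ± 0.48 and -2.89 ± 0.48 (limma adjusted p = 0.00149 and 0.00283). Sos1, a guanine nucleotide exchange factor for RAS, was higher in high by 1.94 ± 0.48 (limma adjusted p = 0.0134).

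**Figure D2:**
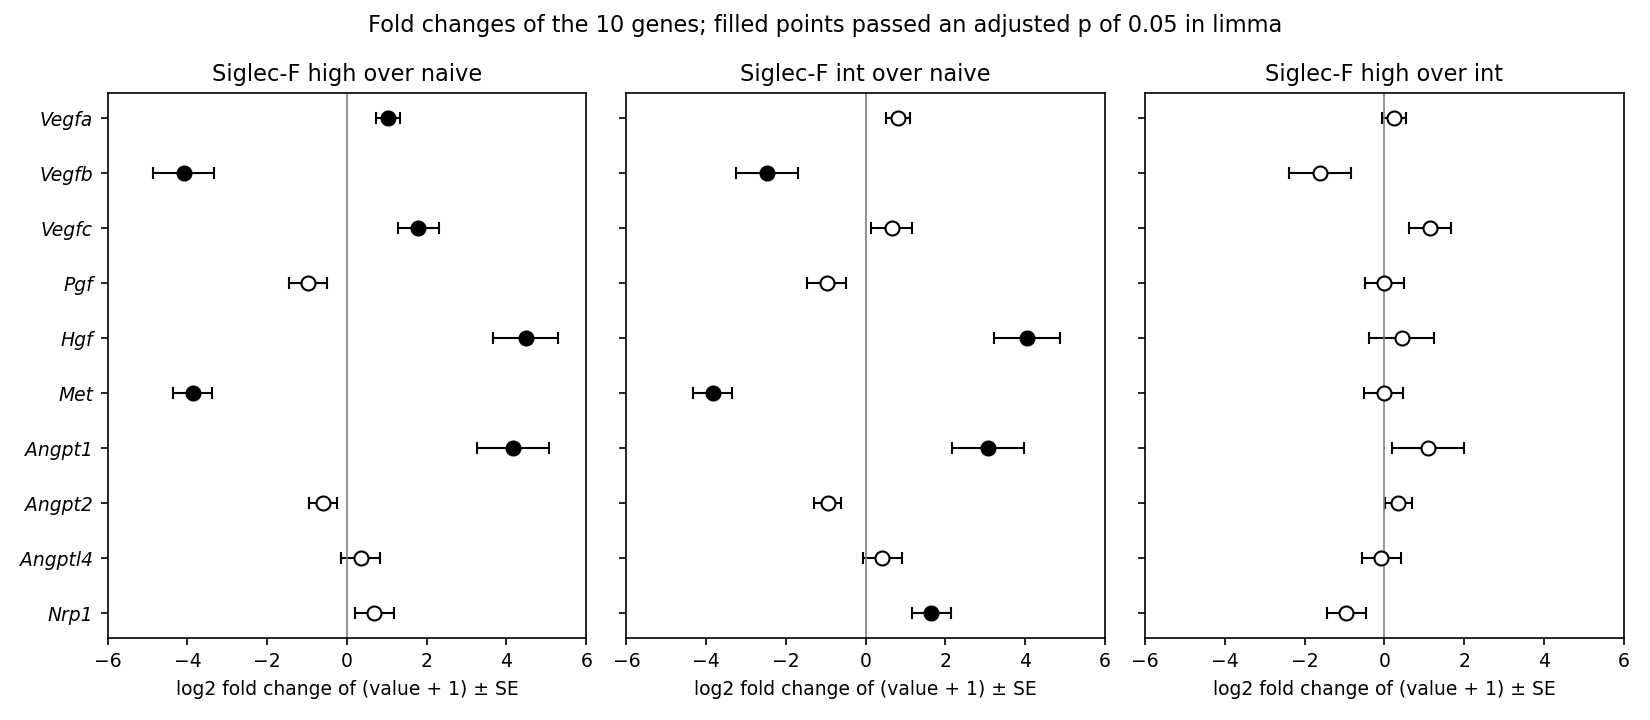
Log2 fold change of (value + 1) with its SE (horizontal axis) for each of the 10 genes in 3 comparisons, Siglec-F high over naive, Siglec-F int over naive and Siglec-F high over int. Filled points passed an adjusted p of 0.05 in limma, 6 in the first panel, 5 in the second and 0 in the third.

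Angpt1, the TIE2 agonist that stabilises vessels (ENSMUSG00000022309.9; chromosome 15, 42424723 to 42676977, minus strand), rose in both groups from tumour-injected mice. It had 136, 52.5 and 64.8 normalized counts in the Siglec-F high libraries, 38.1, 18.1 and 65.2 in the Siglec-F int libraries and 8.03, 0 and 8.35 in the naive libraries. Each library from tumour-injected mice lay above each naive library, and the naive group rested on 17 reads. On the log2 scale the change was 4.16 ± 0.90 for high (limma adjusted p = 0.00810) and 3.06 ± 0.90 for int (limma adjusted p = 0.0342). Naive library 2, the one at 0, set much of the size: without it the changes were 3.09 for high (limma adjusted p = 0.0150) and 2.0 for int (limma adjusted p = 0.0730). The int call was also lost without high library 3, int library 1 or int library 3 (limma adjusted p = 0.0505, 0.101 and 0.135). With the trend in GC content and length removed, the changes were 2.93 for high (limma adjusted p = 0.0306) and 2.02 for int (limma adjusted p = 0.124). Angpt1 is a product of mesenchymal cells in many tissues, and the fibroblast and mesenchymal sums given above ran the same way, with the lowest sum outside naive and the lowest Angpt1 value outside naive both in int library 2. Int library 3, with a sum of 20787, had Angpt1 at 65.2, above the 38.1 of int library 1, with a sum of 24796. The part of these markers in the Angpt1 values was not tested. The gene Gm17473 lies on the opposite strand within Angpt1, and the strand of the reads is not given in the sources used here.

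Angpt2, the context-dependent TIE2 antagonist (ENSMUSG00000031465.6; chromosome 8, 18690263 to 18741562, minus strand, within Mcph1 on the other strand), did not pass. It had 170.0, 196 and 143 normalized counts in the Siglec-F high libraries, 120.25, 107 and 177 in the Siglec-F int libraries and 343, 211 and 230.5 in the naive libraries. All 6 libraries from tumour-injected mice lay below all naive libraries, by a narrow gap. The log2 fold change was -0.60 ± 0.34 for high (limma adjusted p = 0.191) and -0.95 ± 0.34 for int (limma adjusted p = 0.0681). The int change passed without Siglec-F high library 1 (limma adjusted p = 0.0313) and with the trend in GC content and length removed (-1.14, limma adjusted p = 0.0281).

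Angptl4, an angiopoietin-like inhibitor of lipoprotein lipase that hypoxia and PPAR factors induce (ENSMUSG00000002289.15; chromosome 17, 33773750 to 33781830, minus strand), did not pass. It had 37.3, 107 and 66.5 normalized counts in the Siglec-F high libraries, 84.8, 45.9 and 81.0 in the Siglec-F int libraries and 40.1, 57.3 and 56.0 in the naive libraries. The 3 groups overlapped, and the high libraries alone spanned the whole range of the 9. By limma, the log2 change was 0.35 ± 0.49 for high (95% interval -0.73 to 1.42, limma adjusted p = 0.602) and 0.42 ± 0.49 for int (-0.65 to 1.5, limma adjusted p = 0.561). Without Siglec-F high library 2 the value for high was -0.02.

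Of the 3 angiopoietin receptor genes listed, Ptprb, an endothelial phosphatase that restrains TIE2, was higher in high by 1.36 ± 0.46 (limma adjusted p = 0.0468) and stood at 0.45 ± 0.46 in int (limma adjusted p = 0.514). With high library 1 and int library 2 left out, it passed in both (limma adjusted p = 0.0347 and 0.0445), and with the trend in GC content and length removed none of the 3 passed in either. The call in high was lost without naive library 1, 2 or 3, high library 1 or 3, or int library 1 or 3 (limma adjusted p = 0.125, 0.0816, 0.0893, 0.104, 0.0506, 0.0565 and 0.0706). Tek, which encodes TIE2, had changes of 0.64 in high and -0.36 in int and passed in neither (limma adjusted p = 0.375 and 0.659). The 8 endothelial markers summed to 564 to 1138 in the high libraries and 689 to 855 in the int libraries, against 1236 to 1589 in the naive libraries. By limma only 1 of the 8 was lower in each group and 7 did not pass, so the sums do not show a uniform decline. With single libraries left out, 0 to 2 were lower in high and 0 to 3 in int. The part of these markers in the Ptprb and Tek values was not tested. Of 7 further VEGF and angiopoietin-like ligands 4 were tested. Angptl6, an angiopoietin-like factor, was lower in high by -4.10 ± 0.99 (limma adjusted p = 0.0123), and in int none passed. Without both high library 1 and int library 2, Angptl6 passed in int too (limma adjusted p = 0.00965), and Angptl2 passed in high (0.00343) and int (0.00924). After removal of the trend in GC content and length, 1 was higher and 0 lower in each group. Angptl2, another secreted member, stood in the fit of all libraries at 0.73 ± 0.52 in int (limma adjusted p = 0.332).

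Within the Siglec-F high group, library 1 took an outer place for 8 of the 10 genes, as the plot of normalized counts by library shows. It was the highest of the 3 in Vegfa, Vegfc, Hgf and Angpt1 and the lowest in Vegfb, Pgf, Angptl4 and Nrp1. Only 1 of 3 libraries lies between the others for each gene, so an outer place is common for any library. The share over all genes was not computed, and the count is not read as a trait of library 1. The spread within the high group differed between the genes. The SD was 95.8% of the mean for Vegfb, 86.8% for Hgf and 70.9% for Met, where library 3 was the high one, and 15.4% for Angpt2. In the int group the SD was 4.99% of the mean for Nrp1, 6.62% for Vegfb and 66.9% for Hgf.

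Siglec-F high and Siglec-F int libraries were then compared with each other, the contrast of the sorted populations within tumour-injected mice. None of the 10 genes passed with limma or edgeR, and 0 of the 10 had an unadjusted p under 0.05. Over all 13642 genes limma and edgeR called 0, DESeq2 called 6 and 591 (4.33%) had an unadjusted limma p under 0.05. The groups did not overlap for Vegfc and Nrp1, 2 of the 10, where 11.3% of all genes did not overlap, 5.52% higher and 5.75% lower in high. Vegfc was higher in high, by 1.14 on the log2 scale (95% interval -0.02 to 2.29, limma adjusted p = 0.797). Nrp1 was lower in high, at -0.96 (95% interval -2.03 to 0.12, limma adjusted p = 0.797). Vegfb stood at -1.62 (95% interval -3.33 to 0.08), Angpt1 at 1.1 (-0.90 to 3.09) and Hgf at 0.43 (-1.38 to 2.25). The remaining values were those of Vegfa, 0.23 (-0.44 to 0.90), Angpt2, 0.35 (-0.40 to 1.1), Met, -0.02 (-1.10 to 1.06), Pgf, 0.00 (-1.06 to 1.06), and Angptl4, -0.08 (-1.16 to 1.00). A p above the threshold does not show that the groups were alike.

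Groups that did not overlap were counted in the comparisons with naive as well. For high against naive this held for 8 of the 10 genes, all but Angptl4 and Nrp1, where it held for 46.4% of all genes. Of these, 4 were higher and 4 lower, beside 20.2% and 26.3% of all genes. For int against naive it held for 8 of the 10, all but Vegfc and Angptl4, where it held for 50.9% of all genes. Again 4 were higher and 4 lower, beside 23.3% and 27.6% of all genes. The median log2 fold change of the 10 was 0.52 for high and 0.54 for int, against -0.11 and -0.02 over all genes tested.

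Inhibitors of vessel growth were mostly higher than in naive libraries. Of 8 tested genes on a list of angiogenesis inhibitors, 7 were higher in high (median 3.64) and 7 in int (median 2.88), and the same counts held with Siglec-F high library 1 and int library 2 left out. Leaving out single libraries gave 6 to 7 in high and 5 to 7 in int. Thbs1, thrombospondin-1, had 1537, 1075 and 1291 normalized counts in the high libraries, 1004, 2197 and 1062 in the int libraries and 133, 214 and 282 in the naive libraries. Its changes were 2.68 ± 0.38 and 2.72 ± 0.38 (limma adjusted p = 0.00110 and 0.00134). Timp3, a metalloproteinase inhibitor that also blocks VEGF binding to VEGFR2, had 10333, 5141 and 6421 in the high libraries, 5318, 1913 and 5160.4 in the int libraries and 521, 795 and 635 in the naive libraries. Its changes were 3.45 ± 0.42 and 2.55 ± 0.42 (limma adjusted p = 0.000553 and 0.00279). Thbs2, thrombospondin-2, changed by 4.31 ± 0.66 in high and 3.03 ± 0.66 in int (limma adjusted p = 0.00160 and 0.00965). Col18a1, whose protein is the source of endostatin, changed by 3.83 ± 0.64 in high and 3.96 ± 0.64 in int (limma adjusted p = 0.00226 and 0.00242). Vash2, one of the 7, is reported to promote vessel growth and so does not act as the list's name says. Several of these genes are matrix products of fibroblasts, whose marker sums ran the same way as given above, and their part in these values was not tested.

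Of 12 other angiogenic factors, 7 were higher in high (median 1.76) and 5 in int (median 1.43), and none was lower. With high library 1 and int library 2 left out the counts were 7 and 6. Without single libraries they were 6 to 7 in high. In int they were 0 without int library 3, 1 without int library 1, 2 without naive library 1 or 3 and 8 without high library 1. Cxcl12, a chemokine that recruits CXCR4+ cells, changed by 2.25 ± 0.37 in high and 1.35 ± 0.37 in int (limma adjusted p = 0.00214 and 0.0252). Its int call was lost without naive library 1 or 3 or int library 1 or 3 (limma adjusted p = 0.0839, 0.0572, 0.110 and 0.107). Esm1, a product of sprouting endothelium, changed by 3.70 ± 0.68 in high and 3.03 ± 0.68 in int (limma adjusted p = 0.00374 and 0.0109). Ctgf, a matrix-bound factor of fibroblasts, changed by 2.31 ± 0.43 and 1.74 ± 0.43 (limma adjusted p = 0.00398 and 0.0167). Fgf2, basic fibroblast growth factor, changed by 3.20 ± 0.69 in high and 2.75 ± 0.69 in int (limma adjusted p = 0.00797 and 0.0181). The int calls were lost for Esm1 without int library 1 or 3 (limma adjusted p = 0.0520 and 0.0503) and for Ctgf without naive library 1, int library 1 or int library 3 (0.0644, 0.0755 and 0.0772). That for Fgf2 was lost without naive library 1 or 3 or int library 1 or 3 (limma adjusted p = 0.0527, 0.0522, 0.0756 and 0.0645).

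**Figure D3:**
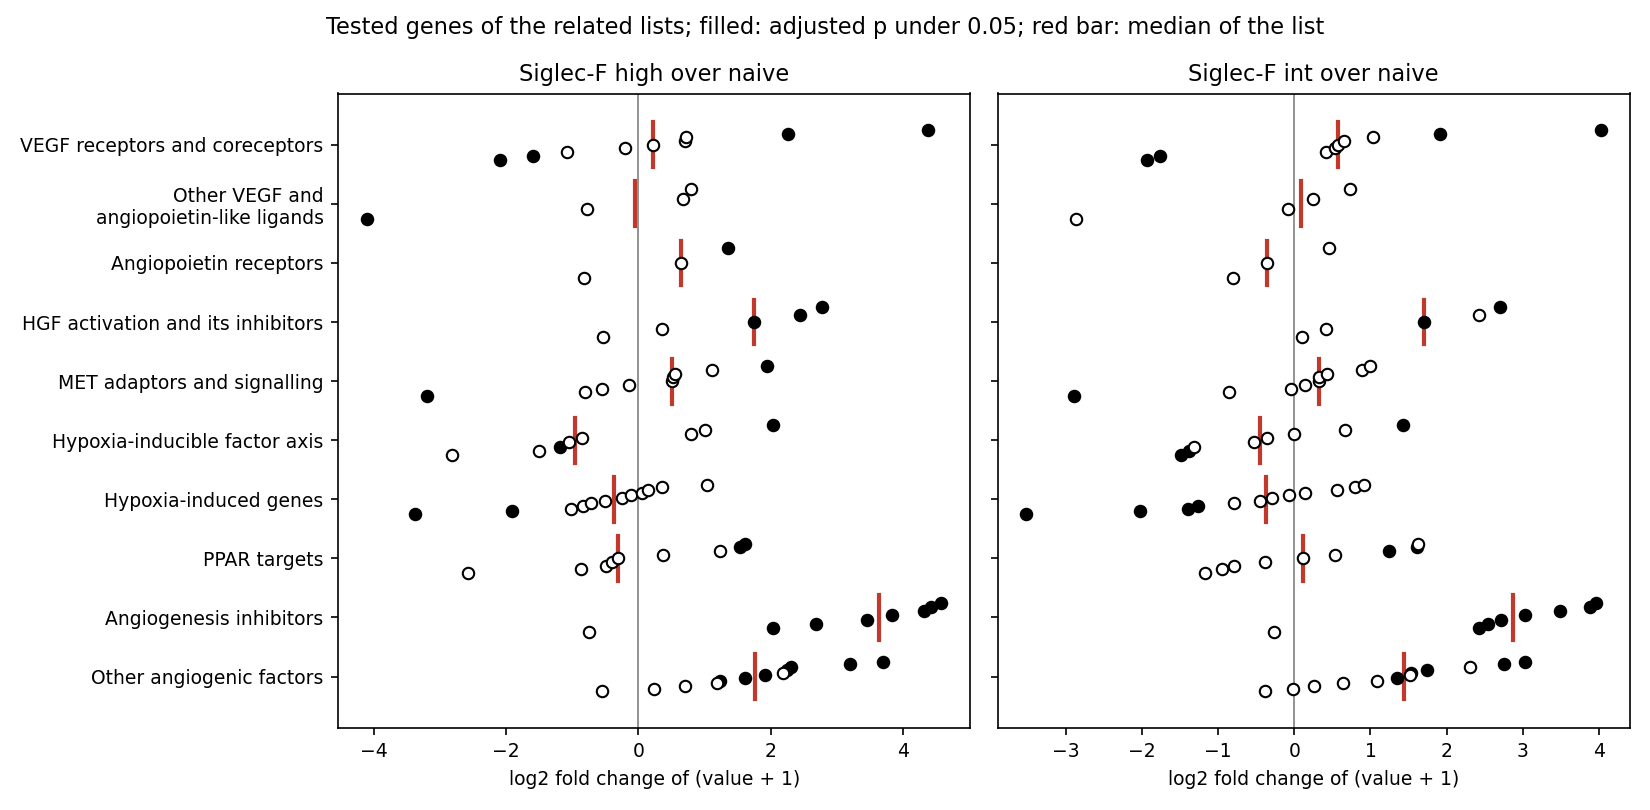
Log2 fold change over naive (horizontal axis) of each tested gene in 10 related lists, for Siglec-F high (left) and Siglec-F int (right). Each point is a gene, filled where limma's adjusted p was under 0.05, and a red bar marks the list's median, 3.64 and 2.88 for the angiogenesis inhibitors.

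Hypoxia induces Vegfa and Angptl4 in many cells, so genes of that response were set beside them. Of 12 genes on a list of hypoxia-induced genes 0 were higher in either group, 2 were lower in high (median -0.37) and 4 were lower in int (median -0.37). Over all genes tested, 14.7% were higher and 16.6% lower in high, and 12.0% were higher and 10.3% lower in int. These shares come from the main fit and stand beside the main counts of every related list. Car9, carbonic anhydrase 9, had 189, 201 and 219 normalized counts in the high libraries, 217, 152 and 189 in the int libraries and 2116, 2071 and 2173 in the naive libraries. Its log2 fold changes were -3.38 ± 0.26 and -3.52 ± 0.26 (limma adjusted p = 9.79e-05 and 0.000106). Bnip3, a mitophagy receptor, changed by -1.91 ± 0.30 and -2.03 ± 0.30 (limma adjusted p = 0.00169 and 0.00156). Adm, the vasodilator adrenomedullin, changed by -1.40 ± 0.38 in int (limma adjusted p = 0.0240), a call lost without naive library 1, 2 or 3 or int library 2 or 3 (0.0726, 0.0523, 0.0629, 0.0691 and 0.0532). Ero1l, an oxidase of protein folding, changed by -1.26 in int (limma adjusted p = 0.0313), a call lost without naive library 1 or 3 or int library 1, 2 or 3 (0.101, 0.104, 0.0581, 0.100 and 0.0815). Without high library 2 the count for high was 1 higher and 4 lower. With high library 1 and int library 2 left out it was 0 higher and 4 lower in high, and 1 higher and 4 lower in int. Once the trend in GC content and length was removed, it was 1 higher and 3 lower in high, and 1 higher and 4 lower in int. Vegfa was higher and Car9 and Bnip3 lower in Siglec-F high than in naive libraries. The naive libraries also held the high pigment cell marker sums given above. The part of hypoxia or of the cell mix in these values was not tested. Egln3, placed on the separate list that follows, was higher, so the counts of the list above do not cover every gene of the response.

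Within the oxygen-sensing pathway itself, 1 of 8 genes was higher in high and 1 lower, and in int 1 was higher and 2 lower, with medians of -0.95 and -0.45. With high library 1 and int library 2 left out, the counts were 1 higher and 1 lower in high, and 1 higher and 3 lower in int. With the trend in GC content and length removed, they were 1 and 1 in high, and 1 higher and 0 lower in int. Egln3, an oxygen-sensing prolyl hydroxylase, changed by 2.03 ± 0.38 in high (limma adjusted p = 0.00420) and 1.43 ± 0.38 in int (limma adjusted p = 0.0231). Egln1, the main prolyl hydroxylase, changed by -1.19 ± 0.31 in high (limma adjusted p = 0.0167) and -1.39 ± 0.31 in int (limma adjusted p = 0.0102). Vhl, which marks hydroxylated HIF for degradation, changed by -1.49 ± 0.47 in int (limma adjusted p = 0.0433). Single libraries carried several of these calls. Egln1 in high was lost without naive library 1 or 3 (limma adjusted p = 0.0598 and 0.0603), and Egln3 in int without naive library 2 or 3 or int library 1 or 3 (0.0587, 0.0730, 0.0873 and 0.0948). Vhl in int was lost without naive library 1, 2 or 3, high library 3, or int library 1 or 3 (limma adjusted p = 0.0658, 0.126, 0.0894, 0.0602, 0.113 and 0.172). Hif1a, the oxygen-regulated subunit, stood at 1.01 in high (limma adjusted p = 0.0587) and 0.66 in int (limma adjusted p = 0.219).

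PPAR target genes, the other setting in which Angptl4 is induced, passed for 2 of 9 genes in each group, both higher, with medians of -0.30 in high and 0.12 in int. After removal of the trend in GC content and length, both higher calls were lost in each group, where the counts were 0 higher and 1 lower. Without both high library 1 and int library 2, they were 2 higher and 0 lower in high, and 3 higher and 1 lower in int. Cd36, a fatty acid transporter, changed by 1.61 ± 0.35 in high (limma adjusted p = 0.00829) and 1.24 ± 0.35 in int (limma adjusted p = 0.0293). Lpl, the lipase that Angptl4 inhibits, had 889.5, 350 and 505 normalized counts in the high libraries, 505, 578 and 614 in the int libraries and 158, 287 and 138 in the naive libraries. Its changes were 1.54 ± 0.40 and 1.61 ± 0.40 (limma adjusted p = 0.0157 and 0.0165). The Lpl calls were lost without naive library 1 or 3, in high (limma adjusted p = 0.0531 and 0.0576) and in int (0.0573 and 0.0618), and in int also without int library 3 (0.0663). The Cd36 call in int was lost without naive library 1 or 3 or int library 1, 2 or 3 (limma adjusted p = 0.0714, 0.0927, 0.0903, 0.0765 and 0.0901). In every one of these 10 related lists, 0 genes passed between Siglec-F high and Siglec-F int with limma.

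For the 4 genes with the highest mean, the 3 genes nearest in pattern were found over the 9 libraries, by the root mean square difference of centred log2(value + 1) among 13641 genes. This is a description of shared levels, in which group differences and depth both count. Nearest to Met were Gm3776, Gm42047 and Nrcam (0.47, 0.49 and 0.50 on the log2 scale). Nearest to Vegfa were Hnrnpul2, Elk3 and Zfand5 (0.14, 0.17 and 0.17), nearest to Angpt2 were Gmds, Gxylt2 and Mrps22 (0.19, 0.19 and 0.21), and nearest to Vegfb were Gstm5, Abhd8 and Eno1b (0.32, 0.33 and 0.35). Nrcam, a neural cell adhesion molecule, had 4.39, 3.58 and 14.5 normalized counts in the high libraries, 6.44, 8.85 and 9.49 in the int libraries and 194, 117 and 193 in the naive libraries. Gstm5, a glutathione transferase, had 12.1, 119 and 62.3 in the high libraries, 113, 87.2 and 131 in the int libraries and 666, 534 and 496 in the naive libraries. It shared with Vegfb the low value of Siglec-F high library 1.

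**Figure D4:**
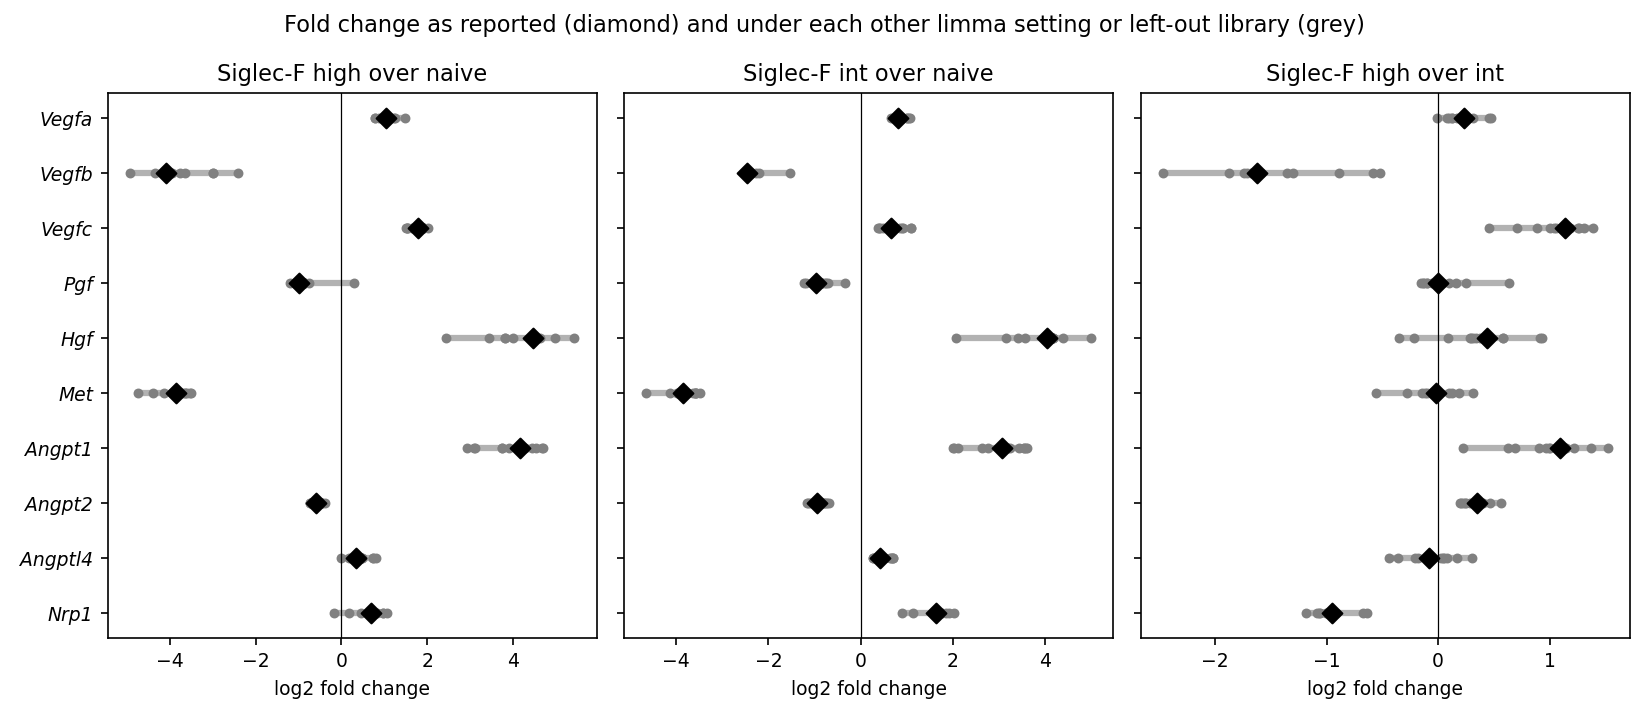
Log2 fold change (horizontal axis) of each of the 10 genes as reported (diamond) and under each other limma setting or left-out library (grey points and bar), in 3 comparisons. Met stays below -3 and Hgf above 2 against naive, while Pgf, Nrp1 and, by a small margin, Angptl4 reach across 0 in Siglec-F high over naive.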

How the data were processed

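RNA was sequenced from mouse lung cells that their labels describe as eosinophils, in 9 libraries and 3 groups of 3. Per the labels' protocols, cells were sorted to over 98% purity, pooled from 3 to 4 mice, kept at an RNA integrity number above 6.3, and made into libraries by a Cell-seq protocol. Per the submitters' processing notes, TopHat2 2.1.0, HTSeq, DESeq2 1.10.0 and the build GRCm38 were used, and their roles are not given there. The deposited signal values are gene-level read counts after division, by the authors, by 1 size factor per library. The smallest step of each column was taken as 1 read, which made 100% of values up to 2000 reads whole within 0.05 read, and the reads so found give the depth. A read was worth 0.316 to 2.61 normalized counts.

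Of 54670 entries, 63 named as dates (0.219% of the total), 116 exact duplicates and 42 with another entry's name and values were left out. Of the 54449 left, 99.9% matched GENCODE M21, which gave positions, lengths and GC content. Genes with a mean of at least 5 over the 9 libraries were tested (13642). A gene under that mean in 1 group was tested only through the others, which favours a call. Hgf, Plau, Plxna2 and Vash2 were under it in naive, and Angptl6 in Siglec-F high. The main test, in R 4.3.3 with limma 3.58.1, used log2(value + 1) and a variance trend, all 9 libraries in 1 fit, two-sided, with Benjamini-Hochberg adjustment over all genes tested at 0.05. A fold change on this scale understates the change of low genes. Other settings were pseudocounts, filters, scalings, variance priors, a fit of the groups compared alone, a replicate block, single libraries left out, and DESeq2 1.42.0 and edgeR 4.0.16 run on recovered reads. The joint removal of Siglec-F high library 1 and int library 2, and a fit free of any trend in GC content and transcript length, were added after seeing the data. The main test was also run on simulated reads without an outlying library, a trend in GC content or length, or a difference in cell mix. That run does not bear on those features, and its results are not given here. Chi-square per degree of freedom between replicates ran from 15.3 to 131, so no library repeated another. Promoters came from RefSeq on GRCm38.p6, and figures from matplotlib 3.10.9.

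The genes and lists were chosen with earlier results of these data known. All 10 genes were named. From each related list up to 3 called genes per direction with the smallest adjusted p in each comparison with naive were named, or otherwise the one with the highest mean. Kdr, Tek, Hif1a, Ero1l and Vash2 were named in addition, after their values were seen. Of the related lists, 1 gene was taken out after its values were seen and is not reported here. Floors cover counting error only, since whether molecular identifiers were used is not given in the sources used here.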

Additional observations from a re-analysis of the deposited data

How the results depend on the processing

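Of 239 recomputed fold changes of the 10 genes per comparison, 228 kept their direction and side of the threshold for Siglec-F high over naive, where 8 lost their call and 3 changed sign. For Siglec-F int over naive 205 kept both, 24 lost and 10 gained a call. For high over int 218 kept both and 21 changed sign. The count of the 10 genes called was 4 to 6 for high and 2 to 7 for int with single libraries left out, 0 between high and int, and 3 for int without the variance trend. Removing the trend in GC content and length gave 6 for high and 4 for int, 1 higher and 3 lower, with no count over all genes given here. Over all genes the calls, 4266 for high and 3036 for int, became 2509 and 4808 in a fit of only the groups compared, and 4623 for int without high library 1 and int library 2. With single libraries left out they ran from 2770 (without naive library 1) to 5101 (without high library 2) for high. For int they ran from 1401 (without int library 3) to 5167 (without high library 1), with 1497 without int library 1 and 1939 without naive library 1. They were 0 between high and int, where DESeq2 called 6. The causes were not tested.

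Under the same removal of the GC and length trend, the log2 change for high over naive was 0.30 for Pgf and -0.16 for Nrp1, and that for high over int was 0.63 for Pgf and 0.17 for Angptl4. For high over int, quantile scaling gave 0.16 for Pgf and 0.0502 for Angptl4. edgeR gave 0.13 and DESeq2 0.18 for Met, and DESeq2 gave 0.0183 for Angptl4. Without both high library 1 and int library 2, Hgf was at -0.35 and Angptl4 at 0.0286. With single libraries left out, Angptl4 ran from -0.0185 to 0.73 for high over naive. For high over int Vegfa ran from -0.00747 to 0.45, Pgf from -0.15 to 0.25, Hgf from -0.21 to 0.93, Met from -0.56 to 0.31 and Angptl4 from -0.44 to 0.31. The cause was not tested.

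The replicate number as a block changed no call of the 10 genes (6, 5 and 0), and gave 4317, 3091 and 0 over all genes. Same-numbered libraries correlated by -0.03 to 0.01 for high and naive, -0.02 to 0.06 for int and naive and 0.07 to 0.14 for high and int, where each correlated best with its own number. Different-numbered high and int libraries correlated by -0.16 to -0.01. These values cannot settle whether same-numbered high and int libraries came from the same mice, and the main fit used no pairing. Depth limits Hgf and Angpt1, with 0 and 17 naive reads.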
